A study of Mus musculus with 15 samples.

Results

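The mouse genes named Zfp with a number were examined for DNA copy number in liver tumours and unaffected liver, on arrays of probes that for these genes were 46 to 60 bases long. Members were all autosomal probes, control spots left out, whose gene name in the array files was Zfp followed by digits only. This gave 402 probes of 40726 autosomal probes, and 220 genes of 19973 named autosomal genes, on all 19 autosomes. Of the 220 genes, 83 had 1 probe, 107 had 2 and 30 had 3 or more. A run of at least 3 member genes with neighbours no more than 1 Mb apart was called a cluster, which put 109 genes into 19 clusters and left 111 single genes. Chromosome 7 alone held 55 members. The 7 Zfp genes of chromosome X, with 13 probes, were left out by the rule, since the tissue and reference DNA came from opposite sexes.

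The tissues came from 3 mice of the strain C57BL/6.129-Mad2flox,p53flox,AlbuminCre, in which Cre recombinase driven by the hepatocyte promoter of Albumin deletes floxed alleles of the spindle checkpoint gene Mad2l1 and of Trp53. Mouse 3151 was a female of 16.4 months, Mad2 f/f p53 f/+, and gave HCC 1, HCC 2 and unaffected liver 1, where HCC stands for hepatocellular carcinoma. Mouse 3760 was a male of 13.8 months, Mad2 f/f p53 f/f, and gave HCC 3 and unaffected liver 2. Mouse 4033 was a male of 13.9 months, Mad2 f/f p53 f/f, and gave HCC 4, HCC 5 and unaffected liver 3. The unaffected livers carried the same floxed alleles and Cre as the tumours, and Cre in hepatocytes leaves other liver cells of a sample unrecombined. The reference was normal liver DNA of mice of the other sex and of the strain C57BL/6.129, wild type per the study. Sex, the reference DNA of the other sex, the Trp53 genotype, the oldest age and mouse 3151 coincide and cannot be told apart. The tissues of mouse 3151 were all scanned on day 2 and those of mouse 3760 on day 1. Of mouse 4033, HCC 4 was scanned on day 2 and the other tissues on day 1. Genomic DNA holds no marker of a cell type, so the share of tumour cells in a sample cannot be read from these arrays.

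Most Zfp genes encode proteins with an array of C2H2 zinc fingers, small domains that each hold a zinc ion and read a few bases of DNA. Many also carry a KRAB domain, which recruits the co-repressor TRIM28 (KAP1) and through it histone methylation, and the best known targets of these proteins are retroelements and imprinted control regions. The KRAB family grows by tandem duplication, so its genes stand in clusters, and clusters of closely related copies are places where mouse strains can differ in gene number. The symbol is historical, and some members belong to other families. All 220 names matched the RefSeq gene table (GRCm38.p6) on the same chromosome, 201 as current symbols and 19 as older ones. Of those 19, 7 are now named as Zbtb, Zscan or Zkscan genes, and Zfp313, Zfp364 and Zfp179 are now the RING finger genes Rnf114, Rnf115 and Rnf112.

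The probes on which the results below turn were read from the array files, 5′ to 3′, with positions as the files give them and no genome build named there. Zfp672, Zfp455 and Zfp61 differed most between mice, Zfp458 is a neighbour of Zfp455 with the opposite pattern, Zfp113 and Zfp157 lie on either side of a step on chromosome 5, and Zfp740 had the lowest p-value between HCC and unaffected liver. No letters are in capitals, because no zinc finger motif was found in them.
Zfp672, chr11:58133370-58133428: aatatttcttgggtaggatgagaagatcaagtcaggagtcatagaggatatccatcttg
Zfp61, chr7:25076044-25076103: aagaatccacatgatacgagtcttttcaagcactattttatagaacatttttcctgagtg
Zfp455, chr13:67298320-67298379: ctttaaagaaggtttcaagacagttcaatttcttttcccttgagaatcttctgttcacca
Zfp458, chr13:67357392-67357451: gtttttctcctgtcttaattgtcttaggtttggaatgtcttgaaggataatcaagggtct
Zfp113, chr5:138586723-138586782: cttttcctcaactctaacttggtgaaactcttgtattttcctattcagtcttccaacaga
Zfp157, chr5:138888118-138888177: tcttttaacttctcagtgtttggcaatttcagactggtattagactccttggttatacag
Zfp740, chr15:102039194-102039253: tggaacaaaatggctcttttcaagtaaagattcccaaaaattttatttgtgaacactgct
The motif searched was ACNGGNGANAANCC, which spells the codons of the linker between C2H2 fingers (threonine, glycine, glutamate, lysine, proline), on both strands. It was in 0 of the 402 Zfp probes and in 1 of all 40726 autosomal probes, so the letters of the linker were absent from the sequence that was measured. The median GC content was 36.7% for the Zfp probes and 36.7% for all autosomal probes.

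Each value is a log2 ratio of tissue over reference DNA, centred so that the median autosomal probe is 0, and is called the level. The level minus the median level of all probes of the same chromosome is called the deviation. The first holds gains and losses of whole chromosomes and the second shows what a gene did apart from its chromosome. Past 0.3 means at least 0.3 in either direction on the log2 scale, and was a description with no test. The X probes averaged 0.30 to 0.88 in the 3 tissues of the female and from -1.30 to -0.68 in the 5 tissues of the males, above 0 and below it as the labelled sexes give. Signal at Zfp probes was a median of 3.73 to 8.04 times the local background, and at most 1.48% of the Zfp spots on an array failed the scanner's background flag. For the 7 tissues hybridised in both dye orientations, the deviations of the Zfp probes from the 2 arrays correlated weakly across probes, with r from -0.20 in unaffected liver 1 to 0.30 in HCC 2, and their median difference was 0.14 to 0.24. A single probe past 0.3 in a single array was therefore common. Most room is given to values that held in several tissues of a mouse or over neighbouring probes. The orientations of some of these still disagreed within a tissue, as at Zfp672, Zfp455 and Zfp820.

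The Zfp genes followed their chromosomes in the tumours. Across the 220 genes, the level of the gene and the median of its chromosome correlated with r = 0.81, 0.60, 0.55, 0.82 and 0.87 in HCC 1 to 5, against 0.06 to 0.22 in the unaffected livers. Over all 19973 genes the same r was 0.81, 0.72, 0.67, 0.82 and 0.91 in the 5 HCC. These correlations are descriptions, since genes of a chromosome share 1 median. On chromosomes whose median was past 0.3, the level of the Zfp gene had the sign of its chromosome for 126 of 133 genes of HCC 1, 31 of 31 of HCC 2, 25 of 27 of HCC 3, 70 of 70 of HCC 4 and 108 of 109 of HCC 5. No chromosome median was past 0.3 in an unaffected liver. The sign counts were not made over all genes, so they do not set the Zfp genes apart from other genes. On the 13 chromosomes with at least 5 Zfp genes, the median level of the Zfp genes lay within 0.12 of the median of the chromosome in all 8 tissues.

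**Figure D1:**
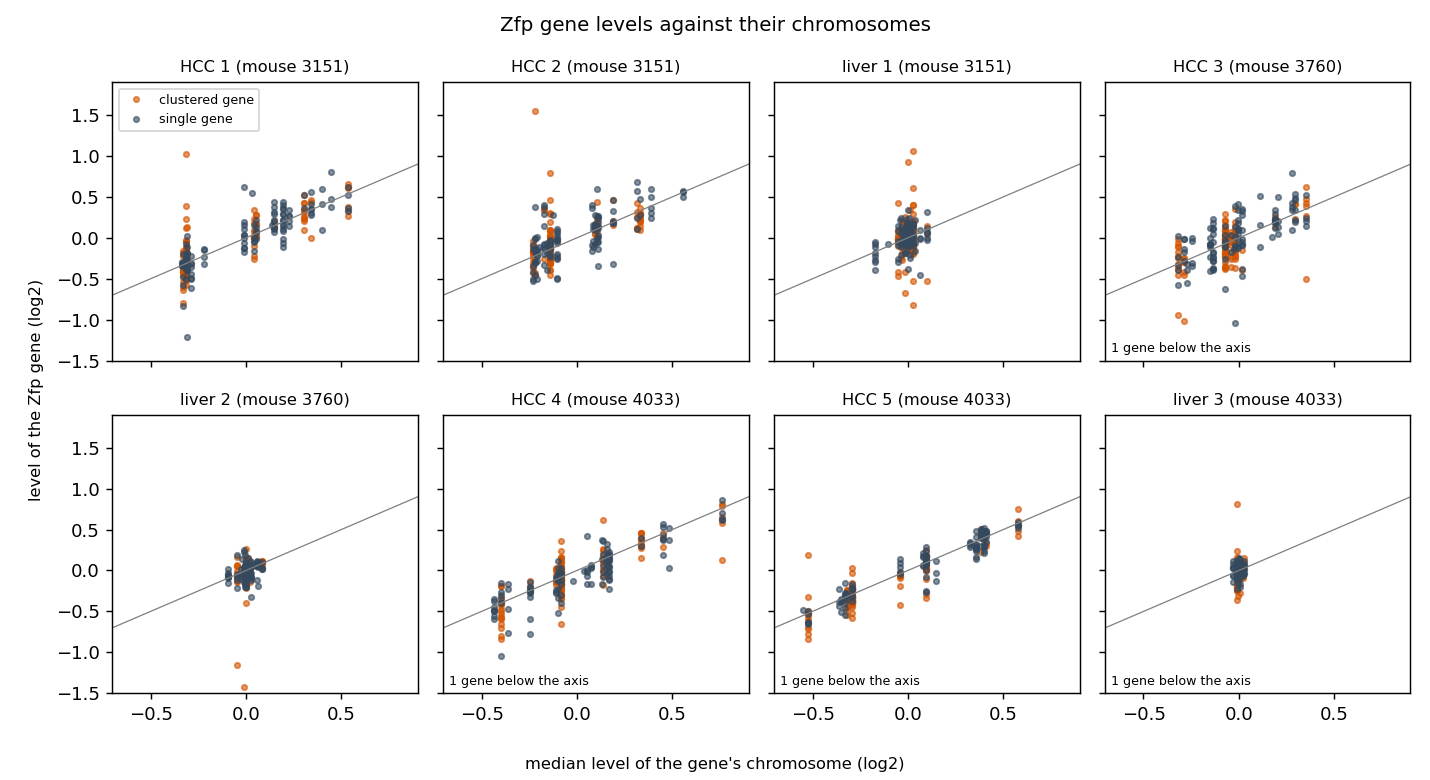
Level of each of the 220 Zfp genes (vertical axis, log2) against the median level of its chromosome (horizontal axis, log2) in each tissue, with clustered genes in orange, single genes in dark blue and the line of equality in grey. In the 5 HCC the genes lie along the line, and in the 3 unaffected livers nearly all sit near 0, and the gene below the axis in HCC 3, HCC 4, HCC 5 and unaffected liver 3 is Zfp672.

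The share of Zfp genes with a level past 0.3 was 44.1%, 25.9%, 25.9%, 33.2% and 55.9% in HCC 1 to 5. Over all named genes it was 38.7%, 28.6%, 26.9%, 35.1% and 54.5%. In the unaffected livers the share of Zfp genes was 8.64%, 1.82% and 1.82%, beside 8.81%, 1.95% and 1.93% of all genes. The Zfp shares thus lay near the background in each tissue. Which Zfp genes were high or low followed the karyotype of the tumour. The counts by chromosome that follow have no share over all genes of the chromosome beside them. In HCC 5, 34 of the 55 Zfp genes of chromosome 7 and 16 of the 17 of chromosome 13 were at or below -0.3, while 12 of the 13 of chromosome 5 and 12 of the 15 of chromosome 8 were at or above 0.3. In HCC 4, all 8 Zfp genes of chromosome 4 and 19 of the 23 of chromosome 17 were at or below -0.3. In HCC 1, chromosome 17 again had 19 of 23 at or below -0.3 and chromosome 7 had 21 of 55. HCC 2 and HCC 3 had fewer than HCC 1, with 8 and 2 of the 23 genes of chromosome 17 and 7 and 5 of the 55 of chromosome 7 at or below -0.3. The median of chromosome 17 was -0.23 in HCC 2 and -0.02 in HCC 3.

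**Figure D2:**
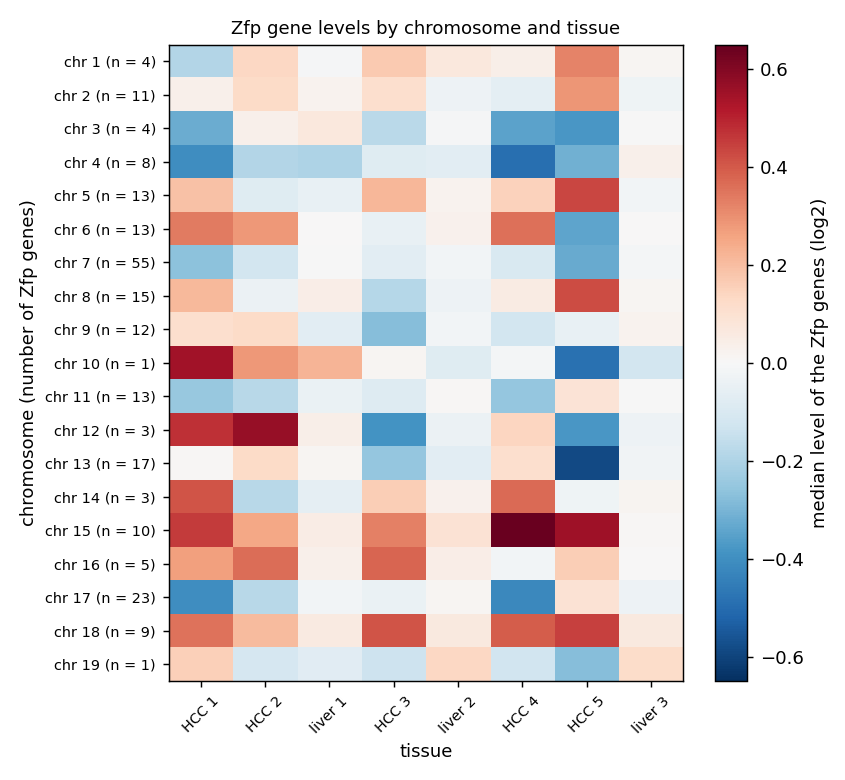
Median level of the Zfp genes (colour, log2) on each autosome (rows, with the number of Zfp genes) in the 8 tissues (columns). Chromosomes 15 and 18 are above 0 in all 5 HCC and chromosome 7, with the most members, is below 0 in all 5, and the 3 unaffected livers are pale.

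Chromosome 15 held the Zfp genes that stood furthest above unaffected liver. Its 10 members had median levels of 0.45, 0.25, 0.33, 0.64 and 0.55 across HCC 1 to 5. In the unaffected livers their medians were 0.05, 0.09 and 0.01. Zfp740, a C2H2 gene with 2 probes spanning chr15:102039194-102044073, had levels of 0.53, 0.57, 0.52, 0.62 and 0.56 in HCC 1 to 5 and of 0.07, 0.02 and -0.07 in unaffected livers 1 to 3. All 5 tumours lay above all 3 livers. Mean levels of 0.56 ± 0.04 (SD, n = 5) and 0.01 ± 0.07 (SD, n = 3) gave a difference of 0.55 ± 0.12 (SE) that limma's moderated test left at an adjusted p of 0.19. Its deviation, with the level of the chromosome taken out, differed by 0.08 (limma adjusted p = 0.999). The other chromosome 15 members differed by 0.23 to 0.54 in level, with limma adjusted p from 0.229 to 0.78.

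No Zfp probe or gene passed the test of HCC against unaffected liver. With limma over all autosomal probes, 0 of 402 Zfp probes were called at an adjusted p of 0.05 in level and 0 in deviation, where the background over all 40726 probes was 0% in both. Over genes, 0 of 220 were called in level and 0 in deviation, where the background over 19973 genes was also 0% in both. At an unadjusted p under 0.05 there were 37 Zfp probes (9.20%, against 7.40% of all probes) in level and 9 (2.24%, against 1.53%) in deviation, and 24 Zfp genes (10.9%, against 8.12% of all genes) in level and 4 (1.82%, against 1.55%) in deviation. Of the 24 genes, 17 were higher and 7 lower in HCC, and 8 of the 17 were on chromosome 15. The median difference over the Zfp genes was -0.06 in level and 0.00 in deviation, beside -0.01 and -0.00 over all genes. In level, 20 Zfp genes had all 5 HCC above all 3 livers (9.09%, where 6.06% of all genes did), and 8 had all HCC below (3.64%, background 3.72%). In deviation these were 3 genes (1.36%, background 0.756%), namely Zfp523, Zfp661 and Zfp770, and 1 gene (0.455%, background 1.25%), Zfp287. With 5 against 3 tissues from 3 animals, the test had little reach for a change carried by some of the tumours.

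Apart from their chromosomes the Zfp genes were past 0.3 about as often as other genes. The dye orientations of a tissue agreed weakly at Zfp probes (r from -0.20 to 0.30), so the shares below are not counts of copy number changes. The share with a deviation past 0.3 was 8.18%, 10.5%, 11.4%, 9.55% and 4.09% in HCC 1 to 5, beside 8.89%, 11.2%, 10.8%, 9.25% and 3.72% of all genes. In unaffected livers 1 to 3 it was 7.73%, 1.82% and 1.82%, beside 7.67%, 1.83% and 1.94%. The tumours averaged 8.73% ± 2.85 (SD, n = 5) and the unaffected livers 3.79% ± 3.41 (SD, n = 3), against 8.76% ± 2.99 and 3.81% ± 3.34 for all genes. The mean over the livers rested on liver 1, without which it was 1.82%. Liver 1 was scanned on day 2, as were HCC 1, HCC 2 and HCC 4, and the other tissues on day 1. On day 2 liver 1 had 7.73%, beside 8.18%, 10.5% and 9.55% in those tumours. On day 1 livers 2 and 3 had 1.82% each, beside 11.4% in HCC 3, which had 1 array, and 4.09% in HCC 5. Tumour and liver shares were thus partly confounded with scan day. Measured as a tumour minus its own liver, 37, 32, 35, 26 and 1 Zfp genes were past 0.3 in HCC 1 to 5 (16.8%, 14.5%, 15.9%, 11.8% and 0.455%), where the background over all genes was 18%, 14.7%, 12.8%, 9.63% and 2.61%. HCC 5 stood lowest in both counts. Over the 8 tissues, 144 Zfp genes were past 0.3 in none (65.5%, background 65.5%), 55 in 1 (25%, background 23.1%), 10 in 3 or more (4.55%, background 4.65%) and 1, Zfp672, in all 8 (0.455%, background 0.135%).

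Clustered and single genes did not differ by a margin larger than the spread between tissues. The share past 0.3 averaged 8.03% ± 3.46 (SD, n = 8 tissues) of clustered and 5.74% ± 5.03 of single genes, a difference of 2.28 ± 4.09 percentage points, with clustered genes higher in 6 of 8 tissues. The gap was widest in unaffected liver 1, where 14 of 109 clustered and 3 of 111 single genes were past 0.3 (12.8% against 2.70%), and next in HCC 5 (6.42% against 1.80%). In unaffected livers 2 and 3 it was 2.75% against 0.901% and 3.67% against 0%. Unaffected liver 1, with the widest gap, also had the lowest correlation between dye orientations at Zfp probes (r = -0.20). In HCC 2 and HCC 3 the order was the other way, with 9.17% and 10.1% of clustered and 11.7% and 12.6% of single genes. The spread of the deviations, as an SD over genes, was larger for clustered than for single genes in 8 of 8 tissues, at 0.22 against 0.07 in unaffected liver 3 and 0.24 against 0.13 in unaffected liver 1. Zfp672, which is described below, is among the clustered genes, and without it this held in 6 of 8 tissues. The clustered SD was then 0.13 in unaffected liver 3, and in HCC 2 and HCC 3 it was 0.19 and 0.20 against 0.20 and 0.22 for single genes.

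**Figure D3:**
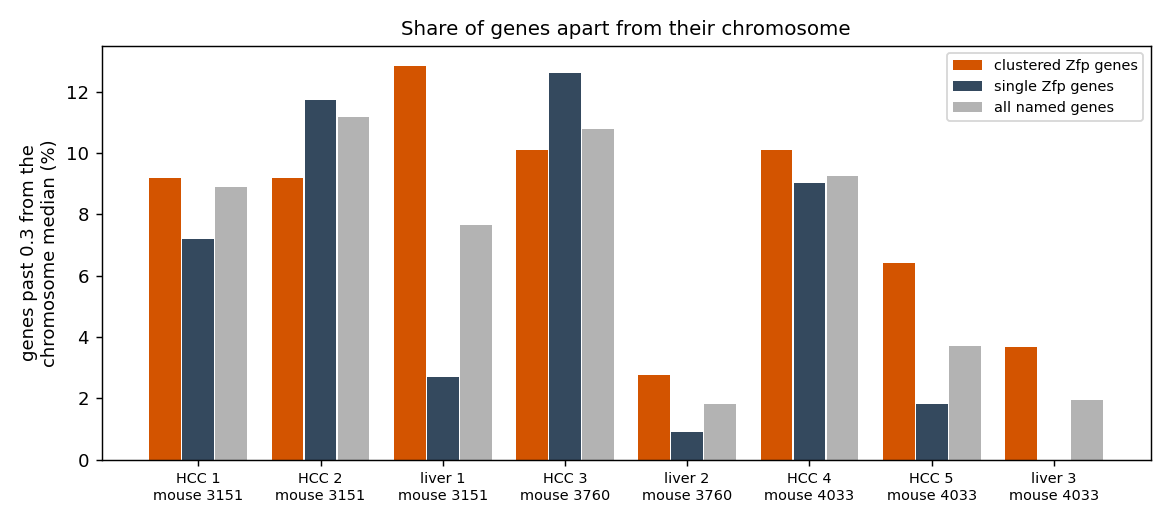
Percent of clustered Zfp genes (orange, n = 109), single Zfp genes (dark blue, n = 111) and all named autosomal genes (grey, n = 19973) whose deviation from the chromosome median was at least 0.3 either way, for each tissue. The widest gap between clustered and single genes is in liver 1, at 12.8% against 2.70%, with 7.67% of all genes between them. Liver 1 is also the tissue with the lowest correlation between dye orientations at Zfp probes.

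The 9 clusters of at least 5 genes kept, as groups, close to their chromosomes, with a median deviation within 0.16 of 0 in all 8 tissues. On chromosome 7 these were Zfp787 to Zfp28 with 7 genes, Zfp180 to Zfp526 with 11, Zfp84 to Zfp146 with 10 and Zfp553 to Zfp646 with 8. The others were Zfp786 to Zfp775 on chromosome 6 with 7 genes, Zfp708 to Zfp273 on chromosome 13 with 9, Zfp41 to Zfp647 on chromosome 15 with 6, and on chromosome 17 Zfp160 to Zfp13 with 11 and Zfp811 to Zfp414 with 6. The chromosome 6 cluster had no gene past 0.3 in any tissue. The 10-gene cluster of chromosome 7 had 2 genes past 0.3, each in 1 tissue or another. The 11-gene cluster of chromosome 7 had 5 such genes, and 3 of those were past 0.3 in every tissue of a single mouse.

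The clearest break inside a cluster was in HCC 2 on chromosome 5, and it was chosen for description after its values were seen. The first 8 Zfp genes of the chromosome, Zfp513 to Zfp113, had levels from -0.33 to 0.15 in HCC 2 with a median of -0.13, while the last 5, Zfp157, Zfp68, Zfp12, Zfp316 and Zfp655, had levels from 0.29 to 0.41 with a median of 0.36. The 2 sets did not overlap. The deviations of the last 5 were 0.51, 0.53, 0.58, 0.55 and 0.47, and the same 5 genes stayed between -0.10 and 0.16 in the other 7 tissues, the sister tumour HCC 1 and unaffected liver 1 of the same mouse included. Other probes moved with them. The 2263 probes that are no member before the gap between Zfp113 and Zfp157 had a median level of -0.20 in HCC 2 and the 324 after it 0.33, against 0.14 and 0.22 in HCC 1 and -0.04 and -0.04 in unaffected liver 1.

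The step could be placed within the cluster of Zfp113, Zfp157 and Zfp68. The 2 probes of Zfp113, at chr5:138586723-138586782 and chr5:138589606-138589665, were at -0.24 and -0.27 in HCC 2, and the last probe of the low run, in BC038925 and ending at 138636391, was at -0.26. The next probe, in BC055004 and starting at 138684047, was at 0.23. The probes of Zfp157 were at 0.46 and 0.22, and those of Zfp68 at 0.28 and 0.43. In the forward and the swapped array, Zfp157 read 0.50 and 0.41 at its first probe and 0.28 and 0.16 at its second, so both orientations placed it above the chromosome. Beyond the step 3 unnamed probes went against the run, at -0.34, -3.39 and -2.99. The last 2 lay low in all tissues of mice 3151 and 4033 and above 0 in both of mouse 3760, with levels of -2.47 and -2.98 in unaffected liver 1, -3.53 and -2.70 in unaffected liver 3 and 0.97 and 0.91 in unaffected liver 2.

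**Figure D4:**
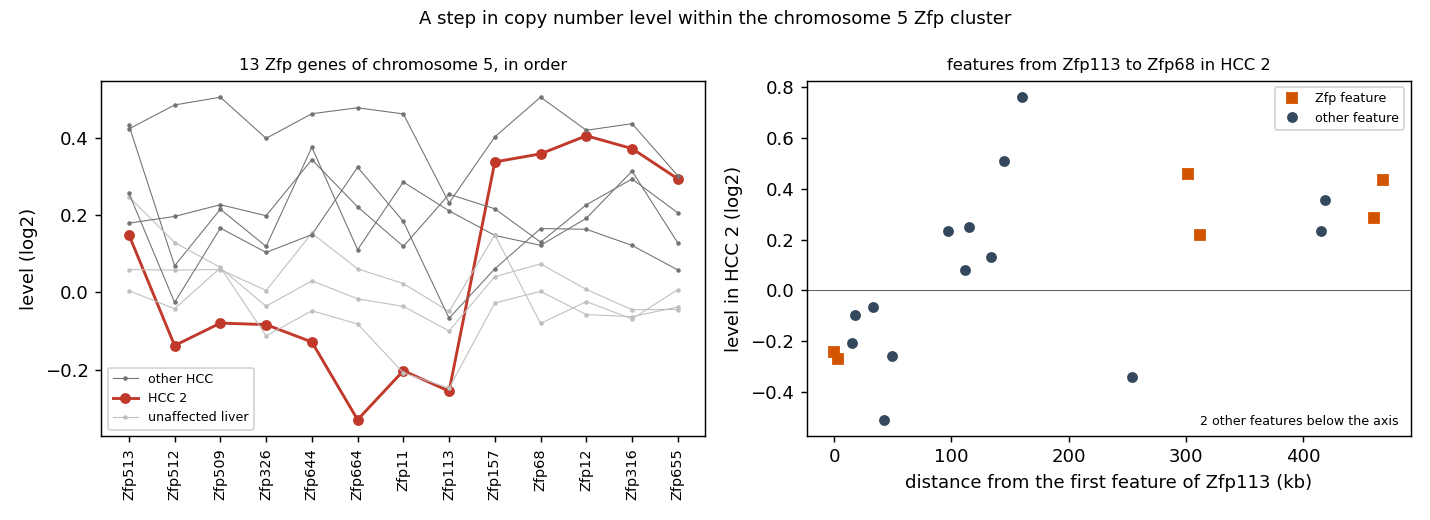
Left, levels (log2) of the 13 Zfp genes of chromosome 5 in their order along it, with HCC 2 in red, the other HCC in dark grey and unaffected livers in light grey. Right, levels in HCC 2 of single probes from Zfp113 to Zfp68 against the distance from the first Zfp113 probe (kb), with Zfp probes as orange squares and others as dark circles. In HCC 2 the genes up to Zfp113 end at -0.26 and those from Zfp157 on start at 0.34, and the probes change level between them.

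Some members differed between mice while tumours and liver of a mouse went together. Counting genes past 0.3 the same way in every tissue of a mouse, mouse 3151 had 4 Zfp genes (1.82%, where 1.1% of all genes were), all higher than the chromosome. Mouse 3760 had 2 (0.909%, background 0.906%), both lower, and mouse 4033 had 3 (1.36%, background 1.08%), 1 higher and 2 lower. These shares were near the background. The counts named 6 different genes, Zfp672, Zfp61, Zfp94, Zfp112, Zfp455 and Zfp820, and all 6 were in clusters. With limma on the 3 mouse means against the reference, 0 of 220 Zfp genes were called, where 0.00501% of 19973 genes were, and 11 had an unadjusted p under 0.05 (5%, against 6.88% of all genes). The lowest adjusted p was 0.709, shared by Zfp60 with a mean deviation of 0.18, Zfp652 with 0.21, Zfp52 with -0.19 and Zfp820 with -0.20.

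Zfp61, Zfp94 and Zfp112, neighbours in the 11-gene cluster of chromosome 7, were higher in mouse 3151 alone. The deviation of Zfp61 was 1.33 in HCC 1, 0.93 in HCC 2 and 1.03 in unaffected liver 1, and -0.31, -0.06, -0.02, -0.09 and -0.35 in HCC 3, unaffected liver 2, HCC 4, HCC 5 and unaffected liver 3. The tissues of mouse 3151 did not overlap those of the other mice, which overlapped each other. All 6 arrays of mouse 3151 were past 0.3, from 0.86 to 1.42. Zfp61, like Zfp94 and Zfp112, was among the genes chosen for their range between mice, so this separation is a description. Mouse 3151 was set against male reference DNA and the other mice against female. A difference between the references cannot be told apart from one between the mice. Zfp94 had deviations of 0.70, 0.45 and 0.58 in mouse 3151 and from -0.15 to 0.16 elsewhere, again with all 6 arrays past 0.3, and both of its probes showed it. Zfp112 had 0.55, 0.60 and 0.37 in mouse 3151 and from -0.18 to 0.06 elsewhere, with 5 of 6 arrays past 0.3. The genes between them did not share the pattern. Zfp93, whose probe lies 16.4 kb from that of Zfp61, had deviations of -0.11, 0.11 and -0.12 in mouse 3151, and Zfp114 had 0.09, -0.14 and -0.01. Zfp108, 34.8 kb away, was at -0.07 and -0.04 in the 2 tumours and at -0.85 in unaffected liver 1, where its arrays gave -1.97 forward and 0.26 swapped. Outside the family, a probe of Kcnn4 93.7 kb beyond Zfp61 had 0.53, 0.59 and 0.63 in mouse 3151 and another of the same gene 0.04, -0.38 and -0.04. Zfp111, between Zfp112 and Zfp61, had a probe at -0.48, -0.42 and -0.27 in mouse 3151 and another at 0.07, 0.12 and 0.29. High, flat and low probes thus alternated along the region.

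Zfp455 and Zfp458, neighbours in the KRAB gene cluster of chromosome 13, separated the 2 male mice, which share sex and genotype. Zfp455 had deviations of -0.63 in HCC 3 and -1.11 in unaffected liver 2 of mouse 3760, and of 0.48, 0.71 and 0.82 in HCC 4, HCC 5 and unaffected liver 3 of mouse 4033. In mouse 3151 it had -0.31, 0.05 and -0.66. The arrays of 1 tissue could lie far apart, with -1.63 forward and 0.29 swapped in unaffected liver 1, and the probe was well above background in both channels on 12 of 15 arrays. With normexp background correction its means in mice 3760 and 4033 were -0.36 and 0.40 in place of -0.87 and 0.67. Zfp458, 59.1 kb away, ran the other way, at 0.18, 0.33 and 0.27 in mouse 3151, 0.10 and 0.21 in mouse 3760, and -0.31, -0.19 and -0.23 in mouse 4033. The groups by mouse did not overlap between mouse 4033 and the others at either gene. Both genes were among those chosen for their range between mice, so this separation is a description. Zfp457, the next gene, had a probe at -0.58 and -0.37 in HCC 5 and unaffected liver 3 but at 0.07 in HCC 4, and a second probe within 0.17 of 0 in all 8 tissues.

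Zfp672, a gene of a 3-member cluster on chromosome 11, had the largest deviations of all members and rests on 1 probe. It had deviations of 0.45, 1.77 and 0.92 in HCC 1, HCC 2 and unaffected liver 1 of the female, and of -2.46, -1.42, -1.60, -2.06 and -1.90 in HCC 3, unaffected liver 2, HCC 4, HCC 5 and unaffected liver 3 of the males. The female's tissues lay above 0 and the males' below it, the same direction as the X probes, which averaged 0.30, 0.35 and 0.88 in the female and -1.09, -0.87, -1.30, -0.68 and -0.92 in the males in that order. The part of sex or of the reference DNA in this result was not tested, and Zfp672 was among the genes chosen for their range between mice. Of all genes, 20 were past 0.3 in opposite ways in mouse 3151 and in both other mice in all tissues (background 0.1%), and Zfp672 was the 1 member among them. The orientations differed by up to 2.73, and unaffected liver 1 gave -0.41 forward and 2.24 swapped. The neighbours Zfp692, 5.31 kb before it, and AK045609, 7.81 kb after it, had deviations from -0.23 to 0.12 and from -0.39 to 0.20. Farther off, probes of Mrpl22 (142 kb before) and OTTMUSG00000005737 (115 kb after) had the signs of Zfp672 in all 8 tissues, at 0.18 to 0.79 and 0.23 to 0.43 in the female and -1.02 to -0.16 and -0.80 to -0.49 in the males. None of the other probes within 150 kb had these signs in all 8 tissues. Zfp820, on chromosome 17, was smaller, at -0.30, -0.43 and -0.31 in mouse 4033, -0.20 and -0.16 in mouse 3760 and -0.27, 0.14 and -0.05 in mouse 3151. Of its 2 probes, 1 gave -0.49, -0.93 and -0.59 in mouse 4033 and the other -0.12, 0.08 and -0.03, and with normexp the mean in mouse 4033 was -0.13 in place of -0.35.

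**Figure D5:**
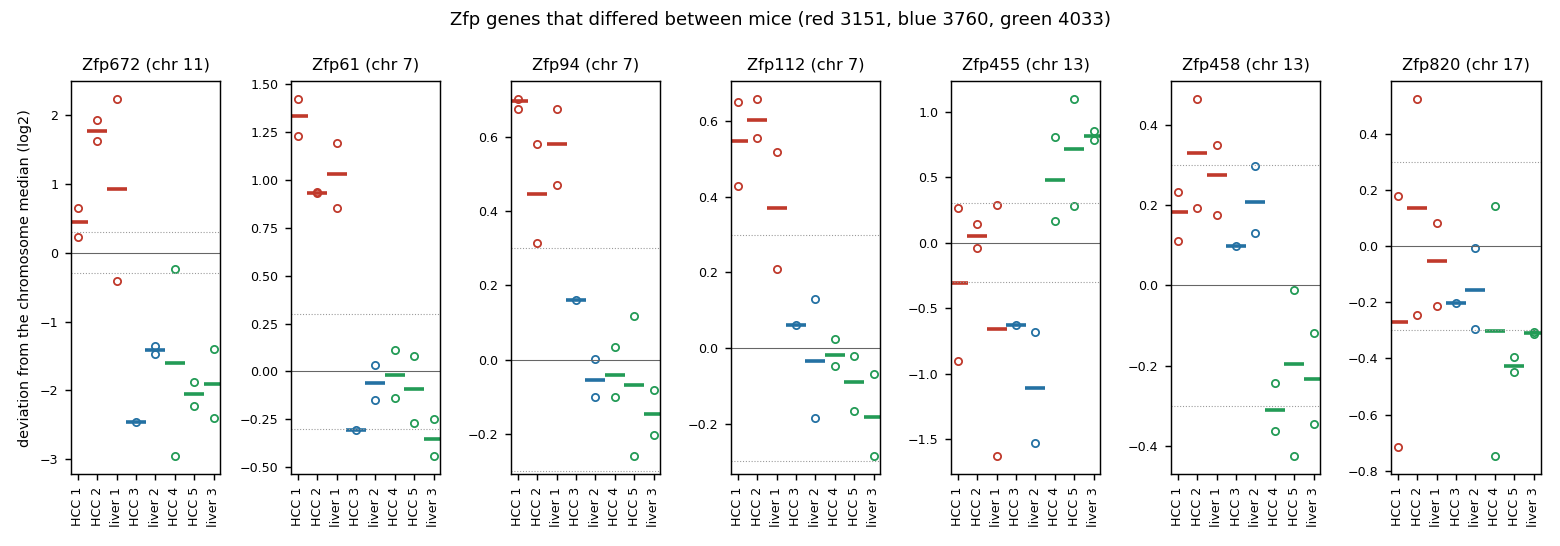
Deviation from the chromosome median (log2) of 7 Zfp genes in each tissue, with open circles for single arrays, bars for the tissue value, and colours for mouse 3151 (red), 3760 (blue) and 4033 (green), on a separate vertical scale for each gene with dotted lines at -0.3 and 0.3. Zfp61, Zfp94 and Zfp112 are high in mouse 3151 only among these 3 mice, Zfp455 is high in mouse 4033, and Zfp672 is above 0 in mouse 3151 and below -1.4 in the tissue values of both males.

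The 8 members with the largest mean difference of a tumour from its own liver were Zfp811, Zfp3, Zfp108, Zfp560, Zfp219, Zfp41, Zfp661 and Zfp281, and 0 of the 8 were called by limma (adjusted p = 0.999 for each). Zfp811 had deviations of -0.04, 0.02, -0.35, -0.19 and -0.08 in HCC 1 to 5 and of 0.48, 0.03 and -0.00 in the livers. Liver 1 alone stood high, and the groups overlapped. Zfp661 had 0.20, 0.13, 0.18, 0.13 and 0.12 in HCC 1 to 5 and -0.26, 0.08 and -0.01 in the livers, with all tumours above all livers and a difference of 0.21 ± 0.08 (SE), which was 0.12 without unaffected liver 1. Its 1 probe gave -0.45 forward and 0.84 swapped in HCC 1, and 0.34 and -0.08 in HCC 2. Zfp3 ranged from -0.90 in HCC 1 to 0.31 in HCC 3, and Zfp219 from -0.46 to 0.40, lowest in HCC 4 and highest in HCC 3. The gap at Zfp41 came from HCC 3, at -0.85, a tumour with 1 array, while the other 7 tissues lay between -0.16 and 0.18.

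Among members with described roles, 26 of 30 listed genes were on the arrays, 0 were called in level or deviation, and most followed their chromosomes. In the retroelement and imprinting group, Zfp57, a KRAB protein that keeps imprinted methylation, had levels of -0.20, -0.50, -1.04, -0.35 and 0.11 in HCC 1 to 5 and -0.29, -0.01 and -0.11 in the livers. Its lowest value came from the single array of HCC 3. Zfp809, which recruits silencing to proviral DNA, and Zfp445, which also acts at imprinted regions, had deviations within 0.17 of 0 in all 8 tissues as means of their probes. Zfp708 of the chromosome 13 cluster reached 0.30 in HCC 1 and lay between -0.19 and 0.10 in the others.

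In the spindle group, Zfp207 (BuGZ), a microtubule-binding protein that stabilises the checkpoint partner BUB3 and so works in the pathway of Mad2l1, had levels of 0.02, -0.29, 0.35, -0.32 and -0.09 in HCC 1 to 5 and -0.04, 0.22 and -0.07 in the livers. Tumours and livers overlapped. Its deviations in mouse 3760, 0.34 in HCC 3 and 0.23 in unaffected liver 2, were the highest beside 0.33 in HCC 1, and the gene has 1 probe. Zfp830, as the mean of 3 probes, had deviations within 0.10 of 0 in all tissues.

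In the RNA group, Zfp36 (tristetraprolin), which brings AU-rich mRNAs to decay, had levels of -0.19, 0.00, 0.16, -0.34 and -0.42 in HCC 1 to 5 and 0.40, 0.09 and -0.18 in the livers. Zfp598, a ubiquitin ligase of stalled ribosomes, had levels of -0.83, -0.53, -0.11, -0.15 and -0.25 in the HCC and -0.03, -0.16 and -0.15 in the livers. Its 2 probes disagreed in HCC 4, with deviations of 0.68 and -0.19. Of the pluripotency genes, Zfp42 (Rex1) had deviations from -0.40 in HCC 4 to 0.19 in HCC 3, and Zfp462, with 5 probes, from -0.21 in HCC 1 to 0.27 in HCC 3. The 2 probes of Zfp42 gave -0.73 and -0.06 in HCC 4, and 0.47 and -0.10 in HCC 3. The adipose regulators Zfp423, Zfp467 and Zfp521 had no deviation past 0.3 in any tissue as means of their probes. The 2 probes of Zfp423 gave -0.18 and 0.58 in HCC 1. Zfp516 had -0.52 in HCC 2, the mean of -0.96 and -0.07 at its 2 probes. Of the genes of general transcription and signalling, Zfp143, Zfp335 and Zfp384 had no deviation past 0.3 as means of their probes, and Zfp148 had none either. Single probes were past 0.3 at Zfp148 (-0.53 in HCC 2, 0.47 in unaffected liver 1), Zfp335 (0.33 in HCC 1) and Zfp384 (0.34 in unaffected liver 1). Zfp64 had 0.42 in HCC 3, -0.41 in HCC 4 and -0.34 in unaffected liver 2, Zfp369 had 0.49 in HCC 2, and Zfp703 had -0.40 in HCC 2. The 2 probes of Zfp369 gave 0.19 and 0.78 in HCC 2. Zfp217, an oncogene of chromosome 2, had 0.63 in HCC 1, the mean of -0.04 forward and 1.28 swapped at 1 probe, and between -0.20 and 0.22 in the others. Values past 0.3 made up 10% of those of the 5 RNA genes, 3.12% of the 4 adipose genes, 9.38% of the 8 transcription genes, 8.33% of the 3 pluripotency genes, 6.25% of the 4 silencing genes and 12.5% of the 2 spindle genes, where the background over all genes and tissues was 6.91%. With so few genes to a list, 1 or 2 values move these shares.

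The partners through which KRAB proteins act were also followed by chromosome. Of 19 listed genes of the TRIM28 co-repressor, 18 were on the arrays and 0 were called by limma in level or deviation. Their median difference between HCC and unaffected liver was 0.02 in level and 0.04 in deviation, and 0.694% of their deviations were past 0.3, beside 6.91% over all genes. Trim28 itself, on chromosome 7 with 55 Zfp genes, had levels of -0.37, -0.35, -0.31, 0.07 and -0.30 in HCC 1 to 5 and -0.03, -0.03 and -0.02 in the livers. Cbx5 (HP1 alpha), on chromosome 15, had levels of 0.63, 0.62, 0.32, 0.93 and 0.62 in HCC 1 to 5 and -0.01, 0.07 and -0.00 in the livers, and all tumours lay above all livers (limma adjusted p = 0.19). Of the related families, 23 Zbtb, 5 Zscan, 7 Zkscan and 15 Klf genes gave 0 calls, with median differences in deviation from -0.04 to 0.02.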

How the data were processed

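Genomic DNA of 8 tissues of 3 mice was hybridised with reference DNA on 15 Agilent 44K mouse CGH arrays of 2 colours. Per the file headers, the authors made the processed intensity values with Feature Extraction 9.1.3.1, background-subtracted, detrended and dye-normalised. A deposited matrix of log10 ratios held the scanner files' own ratios, negated for dye swaps, and served as an alternative. Genome build and dye normalisation method are not given in the sources used here. All columns belonged to these arrays.

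These intensities gave log2 ratios of tissue to reference, turned on swapped arrays and centred on the autosomal median, without loess. Outlier spots were left out, spots of a probe and then both orientations of a tissue were averaged, so that 1 tissue was 1 replicate. HCC 3 had the forward array only. All 402 Zfp probes had a value in all 8 tissues. Genes were means of probes with 1 name on 1 chromosome. Probes and genes were tested with limma 3.58.1 in R 4.3.3 on the whole table with Benjamini-Hochberg adjustment, HCC against unaffected liver without a block, and 3 mouse means against 0. The fits were run on simulated independent noise of a common spread with some rows shifted. That setting has no shared animals and no unequal spreads, so it checks the code and not the p-values of these data. Tissues of 1 mouse are not independent, so p-values measure the spread between these samples. Tumours and liver of a mouse come from the same animal. After subtracting group means, their Zfp gene levels correlated at 0.28 to 0.53, against -0.40 to 0.15 between mice. Over all genes these ranges were 0.05 to 0.23 and -0.17 to 0.09. With the group mean taken off, the 3 livers sum to 0 at each gene. A tumour above 0 with its own liver is thereby pushed below 0 with the others, so the contrast is partly built in. The Zfp genes include Zfp672, whose large values separate mouse 3151 from the others. The number of tissues limits the precision.

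Named genes were the 8 with the largest mean deviation, the 8 with the largest range between mice, the 8 with the largest difference from the own liver, any called gene, and the genes of role lists. The members and lists were chosen with earlier results of these data known. Alternatives changed centring, background (normexp, offset 50), ratios, outlier and dim spots, orientation, baseline (5 Mb), threshold (0.5), cluster gap (0.5 and 2 Mb), a mouse or scan day block, and each tissue left out. Leaving out Zfp672 was added after seeing the data.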

Additional observations from a re-analysis of the deposited data

Results flagged for a closer look

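Among the 5 HCC, 2 of 45 measures examined had a tumour far from the others by Dixon's criterion, which chance meets in about 1 of 20 groups. Zfp219, a chromosome 14 gene with 1 probe, had a deviation of 0.40 in HCC 3, while the other 4 tumours lay between -0.46 and -0.24. HCC 3 had 1 array. Zfp703, a chromosome 8 gene with 1 probe whose product is a transcriptional cofactor, had a deviation of -0.40 in HCC 2, while the other 4 lay between -0.02 and 0.08. Its arrays in HCC 2 gave -0.56 forward and -0.25 swapped. For Zfp703, the deviation of each tumour minus its own liver was also below 0 in both tumours of mouse 3151 and above 0 in the 3 tumours of the other mice, with means that differed by -0.46. That difference was not tested.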

How the results depend on the processing

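No Zfp probe or gene was called under any of the alternatives run, with 0 calls in level, in deviation and against the reference, also with each tissue left out (0 to 0). With a replicate block by mouse the counts were 0 as well, and the pairing changed no call. No fit against the reference was run with a block, since each mouse is 1 value. The share past 0.3 moved from 8.73% to 13% in HCC and from 3.79% to 9.39% in unaffected liver with forward arrays only, and from 8.73% to 2.73% in HCC with a threshold of 0.5. Within scan day 2 the liver share was 7.73%, from unaffected liver 1 alone. With a tissue left out these shares ran from 8.07% to 9.89% and from 1.82% to 4.77%. The median level difference of the Zfp genes, -0.06, was -0.11 with centring on the mode, -0.027 with normexp, -0.086 within scan day 1 and -0.016 within scan day 2, and from -0.066 to -0.034 with a tissue left out, nearest to 0 without HCC 5. The counts of genes past 0.3 in every tissue of mouse 3151, 3760 and 4033 were 4, 2 and 3, and ran from 5 to 7, 4 to 25 and 3 to 5 with one of the mouse's own tissues left out, highest without HCC 2, unaffected liver 2 and unaffected liver 3, since fewer tissues then had to pass. Without HCC 3 mouse 3760 had 4. With a threshold of 0.5 the counts were 1 for mouse 3151 and 1 for mouse 4033, and with normexp 3 and 2. The clustered minus single difference, 2.28 points, stayed between 1.16 and 2.97 with a tissue left out and was 1.43 and 3.29 with cluster gaps of 0.5 and 2 Mb, and 1.43 without Zfp672. The difference of Zfp108 ran from -0.079 without unaffected liver 1 to 0.38 without unaffected liver 3 and was -0.045 within scan day 1, and that of Zfp219 turned to 0.061 within scan day 1. The median deviation of the 5 distal chromosome 5 genes in HCC 2, 0.53, was 0.61 with normexp, 0.63 with forward arrays only and 0.08 against neighbours within 5 Mb, which share the step by construction. The signs of Zfp61 and Zfp672 in each mouse held in 8 of 8 other settings, but with normexp the deviations of Zfp672 were 0.38, -1.01 and -0.85 in mice 3151, 3760 and 4033 in place of 1.05, -1.94 and -1.85, and with forward arrays only 0.48 in mouse 3151. Zfp455 in mouse 3151, -0.30, ran from -0.80 with forward arrays only to -0.082 with the series matrix ratios. The cause of the other shifts was not tested.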
